A study of Homo sapiens with 12 samples.

Results

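The 44 genes described here build ribosomes: subunits of RNA polymerase I and its initiation factors, core proteins of the small nucleolar ribonucleoproteins (snoRNPs), nucleolar scaffold proteins, and assembly factors of the small and the large ribosomal subunit. They were chosen by symbol, as loci of the deposited expression table whose comma-separated name holds one of the symbols and whose value is 1 or more FPKM (fragments scaled to transcript length and library size) in at least 2 libraries. This gave 44 loci of 57908 in the table, 1 for each gene, after a second RRP12 locus under 1 FPKM was set aside. Of these 16 carry a further name, whose reads cannot be told from those of the member. It is another protein-coding gene in 6. In TAF1D, NOP56, NOP58, DKC1 and GNL3 it is a small nucleolar RNA. POLR1E, NCL, TAF1B, HEATR1 and RRP12 share their locus with a name that is neither. Messenger RNA was measured in HCT116, an established human colorectal carcinoma line. The groups were GFP-DOX, NSE4-DOX and SMC5-DOX cells, which received 1000 nM doxorubicin for 24 h, and GFP, NSE4 and SMC5 cells, which received the vehicle PBS. GFP, NSE4 and SMC5 name the plasmid transfected 24 h before treatment: a control plasmid (GFP in the sample titles, a vector in the design text), NSE4A-flag, or SMC5-flag. NSE4A and SMC5 are subunits of the SMC5/6 complex, a chromosome-bound ATPase of DNA repair, and the tagged copies came on top of the cells' own. Doxorubicin, an anthracycline, binds DNA and poisons topoisomerase II. Each group had 2 libraries, and nothing in the sources says that they came from separate cultures, so the spread between them may be technical.

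RNA polymerase I transcribes the 47S ribosomal RNA precursor in the nucleolus from repeated gene copies. The precursor is modified at sites picked by box C/D and box H/ACA snoRNPs, cut, folded and joined with ribosomal proteins to give the 40S and 60S subunits. Many of the genes involved are known targets of the transcription factor MYC, which binds the E-box CACGTG, and block of ribosome synthesis by DNA-binding drugs such as doxorubicin is known to release ribosomal proteins that stabilise p53. Of these protein-coding genes only polyadenylated RNA was measured, so the values bear on the supply of their mRNAs and not on ribosomal RNA itself. In a bulk culture fewer cells and less RNA per cell cannot be told apart, and FPKM gives a share of the library.

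The depth, as estimated from the spacing of low values, was 13.5 to 19.2 in units of 1e+06 fragments per library. Loci above 0 numbered 25194 to 26185 in doxorubicin libraries against 23635 to 24107 in PBS libraries, and a mitochondrial locus (MT-ATP6, MT-ATP8 and MT-CO3) took 16.6 to 33.0% of the summed FPKM; the part of these in the results was not tested. The deposited columns of the SMC5-DOX pair correlated at 0.99943 (Pearson r of log2 values) and had 7 loci above 0 in only 1 of them, against 0.98682 to 0.98805 and 4216 to 5291 loci in the other 5 pairs. As they differed by less than sampling noise, their mean was taken as 1 sample, which leaves 11 samples. The plasmids were expressed: NSMCE4A, the gene of NSE4A, stood at 5283 and 6287 FPKM in NSE4-DOX cells and 4069 and 4186 FPKM in NSE4 cells against 85.7 and 89.4 FPKM in GFP-DOX and 68.7 and 74.8 FPKM in GFP cells, and SMC5 at 811 FPKM in SMC5-DOX and 875 and 979 FPKM in SMC5 cells against 18.6 and 7.02 FPKM in GFP-DOX and 33.5 and 8.76 FPKM in GFP cells. Of 10 epithelial markers 7 were above 20 FPKM in every library, while the intestinal genes VIL1, CDX1 and CDX2 were low. Of 16 markers of other cell types 12 were under 1 FPKM at the median. The exceptions were COL1A1, MAP2, GFAP and a CD14 locus shared with NDUFA2.

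The bases just upstream of the start site are shown for the members with a RefSeq entry that passed the test in every plasmid background. They are also shown for NOP10 and UTP20, which fell in the doxorubicin comparison averaged over the backgrounds and carry CACGTG in these bases. They are 100 bases, 5′ to 3′ in the direction of transcription up to the base before the first listed start, from the RefSeq promoter table (GRCh38.p14), and capitals mark CACGTG. The windows lie at NPM1 chr5:171387749-171387848 (plus strand), FBL chr19:39846380-39846479 (minus strand), NHP2 chr5:178153886-178153985 (minus strand), NOB1 chr16:69754927-69755026 (minus strand), NAT10 chr11:34105529-34105628 (plus strand), UTP3 chr4:70688432-70688531 (plus strand), NOP10 chr15:34343137-34343236 (minus strand) and UTP20 chr12:101280005-101280104 (plus strand). Of the printed genes UTP3 rose and the others fell with doxorubicin. The promoters of NPM1, FBL, NHP2, NOB1 and UTP3 hold no CACGTG in these bases, and NAT10, NOP10 and UTP20 hold 1 within the last 15 bases.
NPM1: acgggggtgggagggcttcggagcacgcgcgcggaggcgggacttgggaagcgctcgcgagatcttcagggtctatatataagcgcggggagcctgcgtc
FBL: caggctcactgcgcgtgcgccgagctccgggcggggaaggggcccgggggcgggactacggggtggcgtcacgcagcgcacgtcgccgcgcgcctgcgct
NHP2: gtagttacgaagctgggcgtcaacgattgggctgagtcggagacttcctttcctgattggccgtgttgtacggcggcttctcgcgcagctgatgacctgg
NOB1: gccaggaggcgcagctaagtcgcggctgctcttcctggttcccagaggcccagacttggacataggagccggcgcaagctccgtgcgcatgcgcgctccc
NAT10: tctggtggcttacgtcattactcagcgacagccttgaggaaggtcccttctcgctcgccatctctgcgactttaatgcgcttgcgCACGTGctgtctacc
UTP3: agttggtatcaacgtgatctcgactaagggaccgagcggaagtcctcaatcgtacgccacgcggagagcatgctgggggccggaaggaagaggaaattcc
NOP10: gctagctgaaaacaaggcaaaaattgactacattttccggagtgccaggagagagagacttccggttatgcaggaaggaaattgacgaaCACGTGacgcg
UTP20: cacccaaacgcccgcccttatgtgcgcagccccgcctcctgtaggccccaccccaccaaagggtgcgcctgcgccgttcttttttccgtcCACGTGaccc

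The same letters were searched in the window from 250 bases before to 50 after each start (CACGTG reads the same on both strands). RefSeq held a window for 38 of the 44 members, not for BOP1, NOLC1, RRP12, NOP58, POLR1E and RRS1. CACGTG was present in 15 of the 38 (39.5%), against 12.4% of 7707 genes of tested loci with a single name and 8.77% of all 27305 genes in the table. FBL carries one 7 bases after its start, and NOP10 carries a second one 170 bases before its start. GNL3 and NOP14, which also fell in the averaged comparison and are not printed, carry one after a listed start (7 and 16 bases). The motif was found in 6 of the 15 members that fell in the doxorubicin comparison averaged over the backgrounds (40%), in 8 of 20 that did not pass the test there (40%) and in 1 of 3 that rose (33.3%, WDR43). The share with these letters was thus the same among members that fell and members that did not pass. A match of 6 letters is a description of the sequence and does not show binding.

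A minority of the ribosome biogenesis mRNAs fell with doxorubicin, and few rose. NPM1, the histone chaperone nucleophosmin, NOB1, the nuclease that trims the 18S rRNA end, NHP2, a box H/ACA protein, and FBL, the methyltransferase fibrillarin, fell in all 3 backgrounds to between 0.535 and 0.758 times the PBS level of FPKM + 1. UTP3, a protein of the small subunit processome, and POLR1E, a polymerase I subunit whose locus also names AL513165.1, rose in all 3, to between 1.57 and 1.91 times. The locus that holds NAT10, an RNA acetyltransferase that acts on 18S rRNA, also fell in all 3, but CAPRIN1 shares it. "Rose", "fell" and "called" refer here to an adjusted p under 0.05 in limma (Benjamini-Hochberg over the 15833 loci tested within a comparison, values as log2(FPKM + 1)), and a fold on this scale understates changes of genes with low FPKM.

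Counts of calls are read against the shares of all loci. In GFP cells 9 of 44 members fell and 2 rose with doxorubicin (20.5% and 4.55%), where 14.1% of all loci fell and 17% rose. In NSE4 cells 7 fell and 2 rose (15.9% and 4.55%), where 13.9% of all loci fell and 16.3% rose. After quantile normalization the members' counts there were 8 and 4, where 2715 of all 15833 loci fell and 2574 rose. In SMC5 cells, with 1 averaged sample, 6 fell and 2 rose (13.6% and 4.55%), where 9.87% of all loci fell and 11% rose. When the 3 doxorubicin effects were averaged, 15 members fell and 5 rose (34.1% and 11.4%), where 23.6% of all loci fell and 28% rose. The fallen share of members was thus somewhat above that of all loci and the risen share below it in each of these 4 comparisons, a difference that was not tested. The median log2 difference of the members was −0.01 in GFP, −0.15 in NSE4 and −0.08 in SMC5 cells, against 0.02, 0.03 and 0.02 over all loci.

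**Figure D1:**
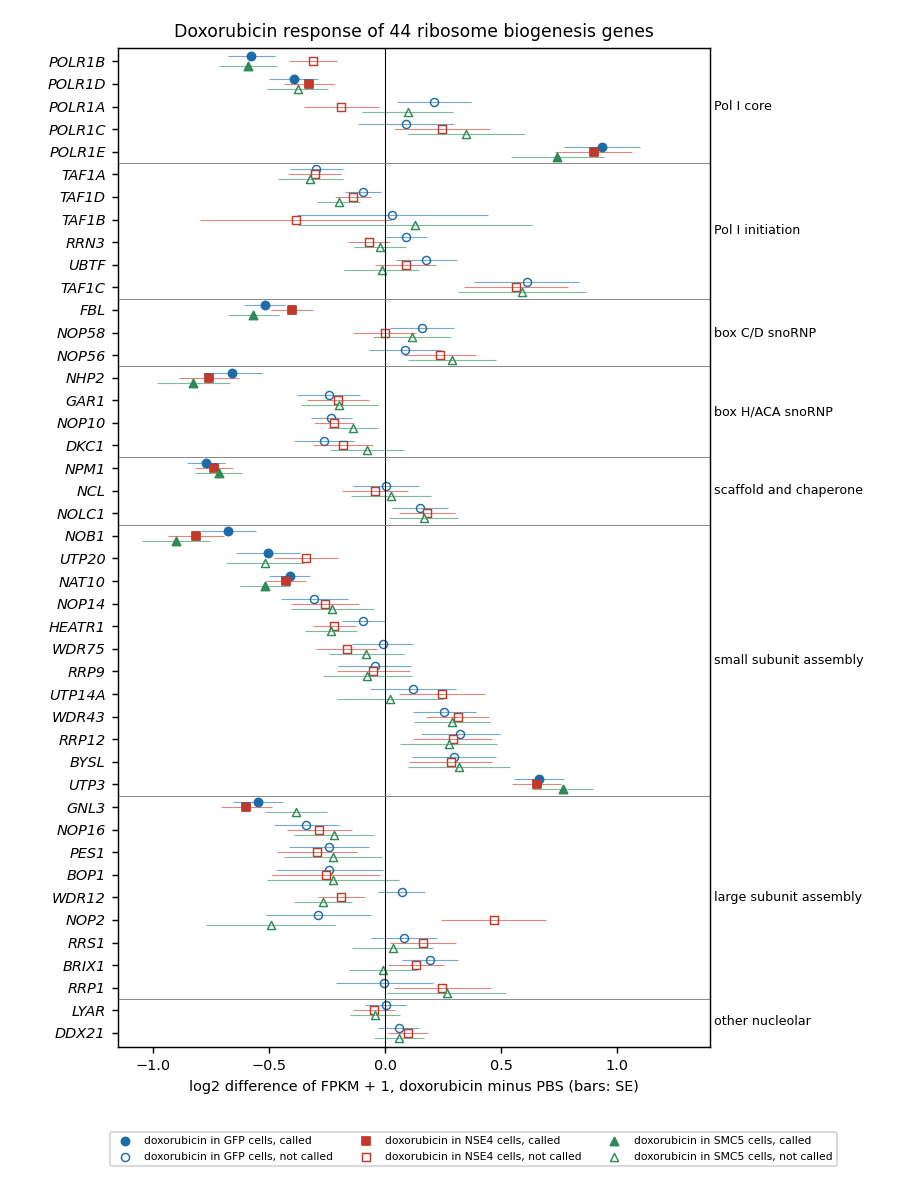
Log2 difference of FPKM + 1 between doxorubicin and PBS for each of the 44 members (rows, grouped by role), in GFP (circles), NSE4 (squares) and SMC5 cells (triangles); bars are standard errors and filled points passed limma's test. Filled points on the left in all 3 backgrounds are those of FBL, NHP2, NPM1, NOB1 and the NAT10 locus, and on the right those of POLR1E and UTP3.

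Across backgrounds the calls overlapped. Of the 44 members 5 fell in all 3 backgrounds (8.25% of all loci did) and 2 rose in all 3 (9.22% of all loci). Another 4 fell in 1 or 2 backgrounds (POLR1B, POLR1D, UTP20 and GNL3), so 9 fell in at least 1 (17.6% of all loci), and 33 were called in none (61.4% of all loci). No member rose in 1 background and fell in another. In 16 members every doxorubicin sample lay below every PBS sample within each background (21.9% of all loci), and in 4 every doxorubicin sample lay above (25.6% of all loci). Over the 44 members the doxorubicin differences of GFP and NSE4 cells had a Pearson r of 0.88, those of GFP and SMC5 cells 0.94 and those of NSE4 and SMC5 cells 0.86, against 0.75, 0.71 and 0.70 over all loci. These pairs of comparisons share no library, but genes are not independent replicates and share depth and GC content within a library. The members also had a higher median level than all loci (37.3 against 8.80 FPKM). Their median standard error for doxorubicin in GFP cells was smaller (0.133 against 0.166). The part of these in the correlations was not tested.

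**Figure D2:**
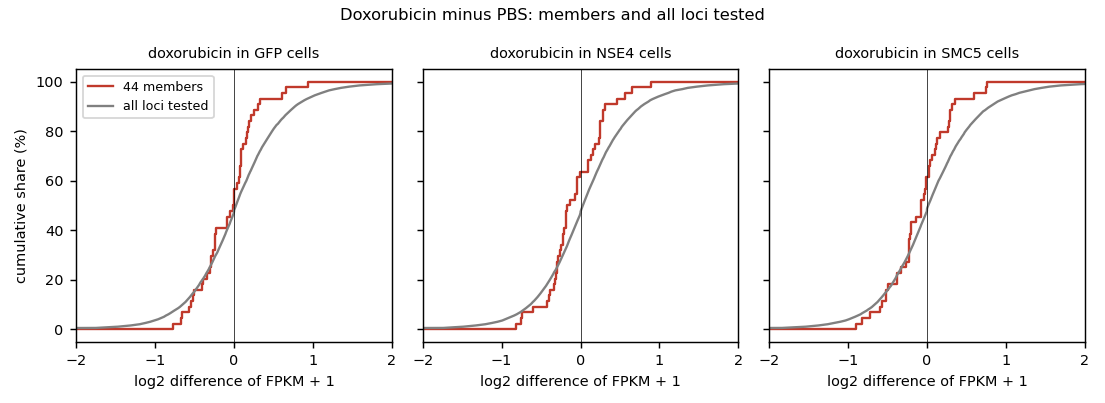
Cumulative share of loci (vertical axis, %) against the log2 difference of FPKM + 1 between doxorubicin and PBS, for the 44 members (red steps) and all 15833 tested loci (grey), in GFP, NSE4 and SMC5 cells; the axis ends at −2 and 2. The members lie between −0.90 and 0.93 in these panels, inside the range of the grey curve, with medians of −0.01, −0.15 and −0.08.

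Of the 5 subunits of RNA polymerase I among the members 2 fell, 1 rose and 2 were not called in the averaged comparison. Of all loci 23.6% fell and 28% rose there. POLR1E, a subunit found in polymerase I and not in the other nuclear RNA polymerases, stood at 32.5 and 45.6 FPKM in GFP-DOX cells against 17.8 and 21.8 FPKM in GFP cells, at 31.2 and 34.4 FPKM in NSE4-DOX cells against 16.8 and 17.4 FPKM in NSE4 cells, and at 30.4 FPKM in SMC5-DOX cells against 18.3 and 17.2 FPKM in SMC5 cells. The locus also names AL513165.1, whose reads cannot be told from those of POLR1E. Each doxorubicin sample lay above each PBS sample of its background. The log2 differences were 0.93 in GFP, 0.90 in NSE4 and 0.74 in SMC5 cells (limma adjusted p = 0.00403, 0.00497 and 0.0343). The call in SMC5 cells was lost without SMC5 replicate 1 (adjusted p = 0.0881), SMC5 replicate 2 (0.112), NSE4-DOX replicate 1 (0.0536) or NSE4-DOX replicate 2 (0.0536), with log2 differences of 0.70 to 0.79, and with no filter on low loci (0.0762).

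POLR1B, the second largest subunit, was listed in a locus with CHCHD5 and TTL, so its reads cannot be told from theirs. The locus stood at 35.9 and 40.3 FPKM in GFP-DOX cells against 58.6 and 55.9 FPKM in GFP cells, at 43.9 and 40.9 FPKM in NSE4-DOX cells against 50.7 and 54.9 FPKM in NSE4 cells, and at 38.1 FPKM in SMC5-DOX cells against 60.9 and 55.1 FPKM in SMC5 cells. The doxorubicin samples were the lower ones in every background, with log2 differences of −0.58 in GFP, −0.31 in NSE4 and −0.59 in SMC5 cells (limma adjusted p = 0.00413, 0.0506 and 0.0136), so that it fell in GFP and SMC5 cells and narrowly missed the threshold in NSE4 cells. Without SMC5 replicate 1 the call in SMC5 cells was lost (adjusted p = 0.0625), and the difference in NSE4 cells passed without either GFP-DOX library (0.05), with median-ratio scaling (0.0391) and after GC adjustment (0.03). POLR1D, which pairs with POLR1C in polymerases I and III, fell in GFP and NSE4 cells by 0.39 and 0.33 on the log2 scale (limma adjusted p = 0.0240 and 0.0478), and its difference in SMC5 cells was −0.38 (adjusted p = 0.0741, or 0.0446 after GC adjustment). Its call in GFP cells was lost without GFP replicate 2 (0.143) or GFP-DOX replicate 2 (0.126), and its call in NSE4 cells was lost without any 1 of the 4 NSE4 libraries or either SMC5 library (0.0708 to 0.151), with quantile normalization (0.109) and with no filter (0.0765). POLR1C and POLR1A, the largest subunit, did not pass in any background. Averaged over the backgrounds their log2 differences were 0.23 (95% interval −0.07 to 0.52; adjusted p = 0.0351 without GFP-DOX replicate 1) and 0.04 (−0.19 to 0.27).

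The initiation machinery consists of the promoter factor SL1, with subunits TAF1A, TAF1B, TAF1C and TAF1D, of UBTF, which coats the ribosomal DNA, and of RRN3, which joins the polymerase to the promoter complex. None of the 6 was called in any single background, and 3 were called in the averaged comparison (2 fell and 1 rose, where 23.6% of all loci fell and 28% rose). TAF1C stood at 43.7 and 60.1 FPKM in GFP-DOX cells against 30.0 and 36.7 FPKM in GFP cells, at 42.1 and 61.5 FPKM in NSE4-DOX cells against 30.5 and 38.1 FPKM in NSE4 cells, and at 51.1 FPKM in SMC5-DOX cells against 30.6 and 37.0 FPKM in SMC5 cells. The doxorubicin samples were above the PBS samples throughout, yet the libraries of a group were far apart, and the averaged log2 difference was 0.59 (SE 0.14, adjusted p = 0.00812) in limma. In GFP and NSE4 cells alone TAF1C had adjusted p-values of 0.0728 and 0.0936, and it was called there with median-ratio scaling (0.0332 and 0.0447), quantile normalization (0.0301 and 0.0397) and GC adjustment (0.0302 and 0.0479). TAF1A, at low level, stood at 5.58 and 5.73 FPKM in GFP-DOX cells against 7.54 and 6.83 FPKM in GFP cells, at 5.53 and 4.95 FPKM in NSE4-DOX cells against 6.44 and 6.95 FPKM in NSE4 cells, and at 5.16 FPKM in SMC5-DOX cells against 6.39 and 7.04 FPKM in SMC5 cells. Its doxorubicin samples were the lower ones in each background, and the averaged log2 difference was −0.31 (SE 0.07, adjusted p = 0.00700), with single-background limma adjusted p-values of 0.0830, 0.0789 and 0.140. TAF1D, in a locus with small nucleolar RNAs, fell by 0.14 on the log2 scale (averaged, adjusted p = 0.0333). With quantile normalization that difference was −0.06 (0.424) and after adjustment for GC content −0.06 (0.157), and the call was also lost without GFP replicate 1 (0.0763), GFP-DOX replicate 1 (0.0555), NSE4 replicate 1 (0.0507), NSE4-DOX replicate 2 (0.0658), SMC5 replicate 1 (0.0725) or SMC5 replicate 2 (0.0520).

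UBTF and RRN3 had averaged log2 differences of 0.08 (95% interval −0.10 to 0.27) and −0.00 (−0.13 to 0.13). RRN3 has 3 pseudogene loci in the table, at up to 20.5 FPKM, so its own value is uncertain. TAF1B was uneven between libraries of the PBS groups, at 10.9 and 30.8 FPKM in NSE4 cells and 10.9 and 18.0 FPKM in GFP cells, and its intervals were the widest of the members. Without NSE4 replicate 1 it was called lower in NSE4-DOX than in NSE4 cells (log2 difference −1.09, adjusted p = 0.0416), against −0.39 with all libraries.

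**Figure D3:**
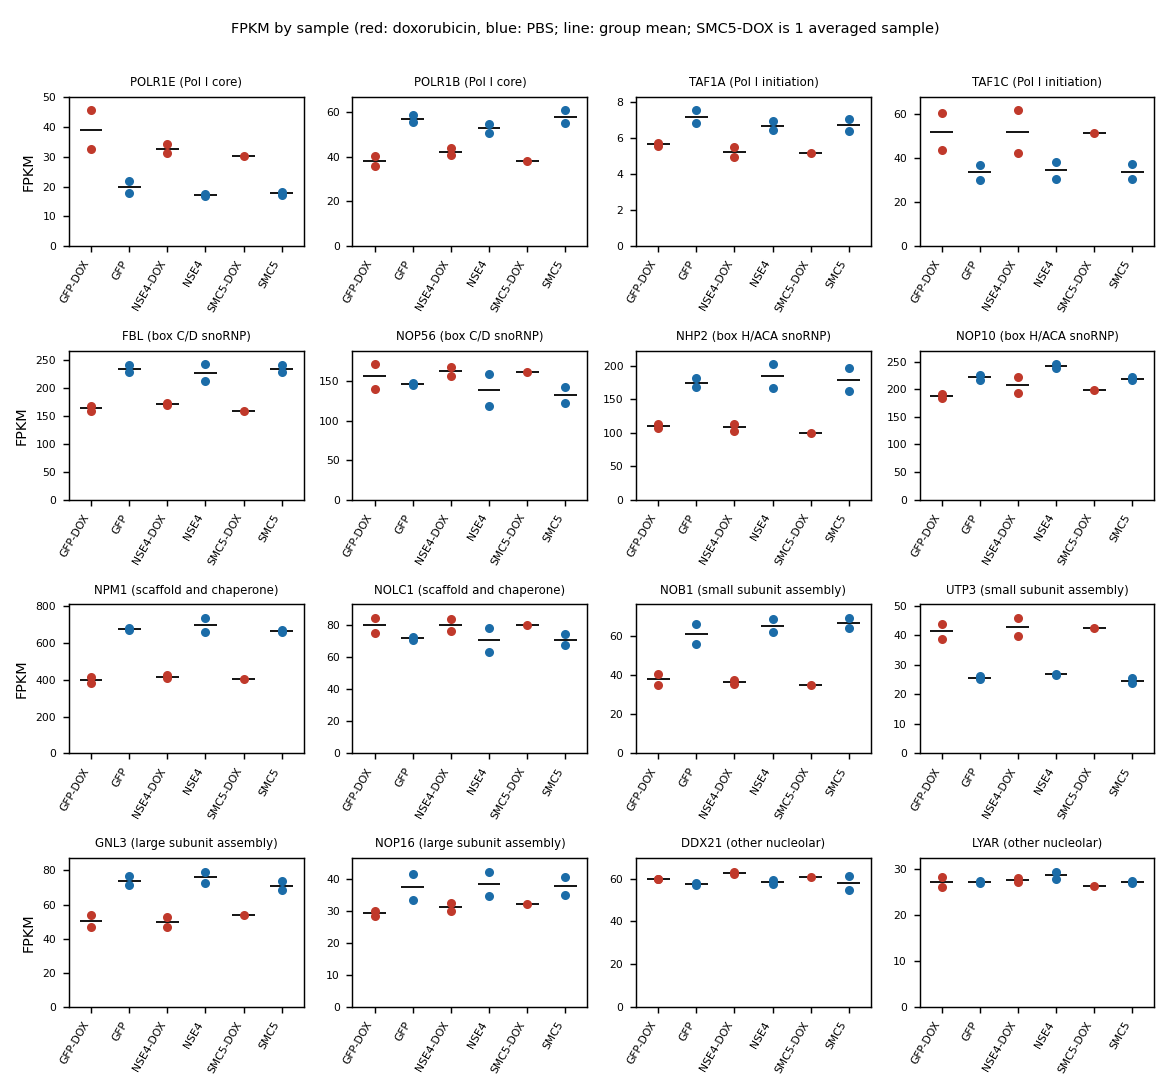
FPKM (vertical axes, from 0) of the 2 members with the smallest averaged p in each role, in the doxorubicin (red) and PBS (blue) samples of each plasmid; lines are group means, and SMC5-DOX is 1 averaged sample. NPM1 lies between 382 and 424 FPKM in the doxorubicin samples and between 661 and 736 FPKM in the PBS samples, while LYAR lies between 26.1 and 29.5 FPKM in all samples.

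Among the box C/D proteins, which guide 2′-O-methylation of rRNA, only the methyltransferase fell. FBL stood at 159 and 168 FPKM in GFP-DOX cells against 240.0 and 229 FPKM in GFP cells, at 170.2 and 173 FPKM in NSE4-DOX cells against 212 and 242 FPKM in NSE4 cells, and at 158 FPKM in SMC5-DOX cells against 228 and 241 FPKM in SMC5 cells. Every doxorubicin sample was below every PBS sample, with log2 differences of −0.52 in GFP, −0.40 in NSE4 and −0.57 in SMC5 cells (limma adjusted p = 0.00381, 0.0122 and 0.00973). In NSE4 cells the call was lost without NSE4 replicate 2 (adjusted p = 0.0566), NSE4-DOX replicate 1 (0.0589) or NSE4-DOX replicate 2 (0.0508). NOP56, a core scaffold of the same particle in a locus with small nucleolar RNAs, stood at 141 and 171 FPKM in GFP-DOX cells against 145 and 148 FPKM in GFP cells, at 157 and 168 FPKM in NSE4-DOX cells against 119 and 159 FPKM in NSE4 cells, and at 162 FPKM in SMC5-DOX cells against 122 and 143 FPKM in SMC5 cells. Its groups overlapped in GFP and NSE4 cells and the averaged log2 difference of 0.20 did not pass in limma (adjusted p = 0.109), although it did with median-ratio scaling (0.0470), with quantile normalization (0.00342) and without NSE4 replicate 2 (0.0273). The partner scaffold NOP58 had an averaged log2 difference of 0.09 (95% interval −0.10 to 0.29). Whether FBL differed from these partners was not tested.

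All 4 box H/ACA proteins, which carry pseudouridylation guides and the telomerase RNA, were below their PBS mean in each background. The exception was NOP10 in SMC5 cells with quantile normalization (log2 difference 0.04). Of all loci 74.2% had a difference of the same sign, up or down, in all 3 backgrounds. In the averaged comparison 2 of the 4 fell, where 23.6% of all loci fell and 28% rose. NHP2 stood at 108 and 113 FPKM in GFP-DOX cells against 168 and 181 FPKM in GFP cells, at 103 and 114 FPKM in NSE4-DOX cells against 167 and 203 FPKM in NSE4 cells, and at 100.2 FPKM in SMC5-DOX cells against 162 and 197 FPKM in SMC5 cells. The groups did not overlap, and the log2 differences were −0.66 in GFP, −0.76 in NSE4 and −0.83 in SMC5 cells (limma adjusted p = 0.00629, 0.00339 and 0.00879). NOP10 stood at 192 and 185 FPKM in GFP-DOX cells against 225 and 217 FPKM in GFP cells, at 222 and 194 FPKM in NSE4-DOX cells against 239 and 245 FPKM in NSE4 cells, and at 199 FPKM in SMC5-DOX cells against 217 and 222 FPKM in SMC5 cells. Here too the doxorubicin samples were the lower ones, but by less, and the averaged log2 difference was −0.20 (SE 0.05, adjusted p = 0.0161) in limma. With quantile normalization it was −0.04 and not called (adjusted p = 0.691). DKC1, the pseudouridine synthase dyskerin, and GAR1 had averaged differences of −0.17 (adjusted p = 0.105) and −0.21 (0.0622). Both passed with median-ratio scaling (0.0375 and 0.0171), with quantile normalization (0.0161 and 0.00685) and after GC adjustment (0.0178 and 0.0186), and GAR1 also without GFP-DOX replicate 2 (0.0230), NSE4 replicate 1 (0.0424) or SMC5-DOX replicate 2 (0.0372). In GFP cells alone DKC1 and GAR1 passed with quantile normalization (limma adjusted p = 0.0382 and 0.0446), and DKC1 after GC adjustment (0.0468).

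Of the nucleolar scaffold proteins and chaperones, NPM1 had the smallest adjusted p of all members in each background. It stood at 382 and 413 FPKM in GFP-DOX cells against 672 and 683 FPKM in GFP cells, at 411 and 424 FPKM in NSE4-DOX cells against 661 and 736 FPKM in NSE4 cells, and at 404 FPKM in SMC5-DOX cells against 669.5 and 661 FPKM in SMC5 cells. No doxorubicin sample reached the lowest PBS sample. The log2 differences were −0.77 in GFP, −0.74 in NSE4 and −0.72 in SMC5 cells (limma adjusted p = 4.10e-04, 5.10e-04 and 0.00249), and the averaged one was −0.74 (SE 0.05, adjusted p = 1.27e-05). NPM1 has 45 pseudogene loci in the table, each at 0.635 FPKM or less, so reads assigned to them are few beside its own. NCL, the major nucleolar RNA-binding protein nucleolin, overlapped between doxorubicin and PBS in each background, with an averaged log2 difference of −0.00 (95% interval −0.21 to 0.20). NOLC1, a chaperone that accompanies snoRNPs, stood at 75.1 and 84.5 FPKM in GFP-DOX cells against 70.8 and 72.6 FPKM in GFP cells, at 76.5 and 83.7 FPKM in NSE4-DOX cells against 63.4 and 78.5 FPKM in NSE4 cells, and at 79.8 FPKM in SMC5-DOX cells against 67.9 and 74.2 FPKM in SMC5 cells. Its averaged difference of 0.17 did not pass in limma (adjusted p = 0.101), and passed with median-ratio scaling (0.0327), quantile normalization (0.0174) and without NSE4 replicate 2 (0.03).

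Small subunit assembly factors went both ways: averaged over the backgrounds 5 of 12 fell, 3 rose and 4 did not pass, where 23.6% of all loci fell and 28% rose. NOB1 stood at 35.0 and 40.6 FPKM in GFP-DOX cells against 55.9 and 66.1 FPKM in GFP cells, at 35.4 and 37.5 FPKM in NSE4-DOX cells against 61.7 and 68.3 FPKM in NSE4 cells, and at 35.1 FPKM in SMC5-DOX cells against 63.8 and 69.1 FPKM in SMC5 cells. It had the largest fall of the members in NSE4 and SMC5 cells, with log2 differences of −0.68 in GFP, −0.82 in NSE4 and −0.90 in SMC5 cells (limma adjusted p = 0.00420, 0.00182 and 0.00466) and no overlap between the groups. UTP3 stood at 38.7 and 43.97 FPKM in GFP-DOX cells against 25.2 and 26.2 FPKM in GFP cells, at 39.8 and 45.9 FPKM in NSE4-DOX cells against 26.9 and 26.7 FPKM in NSE4 cells, and at 42.5 FPKM in SMC5-DOX cells against 23.8 and 25.4 FPKM in SMC5 cells. Each doxorubicin sample was above each PBS sample, and the log2 differences were 0.66 in GFP, 0.65 in NSE4 and 0.77 in SMC5 cells (limma adjusted p = 0.00285, 0.00306 and 0.00586).

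The NAT10 locus, shared with the RNA-binding protein gene CAPRIN1, stood at 83.0 and 77.5 FPKM in GFP-DOX cells against 112 and 102 FPKM in GFP cells, at 80.1 and 79.4 FPKM in NSE4-DOX cells against 109 and 106 FPKM in NSE4 cells, and at 75.2 FPKM in SMC5-DOX cells against 111 and 105 FPKM in SMC5 cells. It fell in each background (log2 differences of −0.41 in GFP, −0.43 in NSE4 and −0.52 in SMC5 cells, limma adjusted p = 0.00899, 0.00801 and 0.0123). The call in GFP cells was lost without GFP replicate 1 (adjusted p = 0.0621) or GFP-DOX replicate 2 (0.0515) and the call in SMC5 cells without SMC5 replicate 1 (0.0562). UTP20, a large processome protein, had the lowest level of the members, at 1.93 and 1.77 FPKM in GFP-DOX cells and 3.01 and 3.08 FPKM in GFP cells. It fell there by 0.50 on the log2 scale (limma adjusted p = 0.0252), a call lost without any 1 of the 4 libraries compared (0.0577 to 0.0948), and by 0.45 averaged over the backgrounds (adjusted p = 0.00251).

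HEATR1 and NOP14, also of the processome, fell in the averaged comparison by 0.18 and 0.26 on the log2 scale (limma adjusted p = 0.0279 and 0.0376), and WDR43 and RRP12 rose by 0.29 and 0.30 (adjusted p = 0.0208 and 0.0452). RRP12 is known from yeast to help export both subunits. Each of these 4 calls was lost without some library. For HEATR1 these were GFP replicates 1 and 2, NSE4 replicate 1, NSE4-DOX replicate 2 and SMC5 replicate 2 (adjusted p = 0.0540 to 0.0627). NOP14 was not called without GFP replicate 1 or 2, GFP-DOX replicate 1, NSE4 replicate 2, NSE4-DOX replicate 1, SMC5 replicate 1 or 2, or SMC5-DOX replicate 1 (0.0518 to 0.0869). RRP12 was not called without GFP replicate 1 or 2, GFP-DOX replicate 2, NSE4 replicate 1, NSE4-DOX replicate 2, SMC5 replicate 1 or SMC5-DOX replicate 2 (0.0593 to 0.107), nor WDR43 without GFP replicate 2, GFP-DOX replicate 2 or SMC5 replicate 2 (0.0512 to 0.0533). After GC adjustment HEATR1 and RRP12 were not called either (0.0533 and 0.0505), nor NOP14 and RRP12 with no filter (0.0707 and 0.0956). In GFP cells alone NOP14 was called with quantile normalization (limma adjusted p = 0.0269) and GC adjustment (0.0219). In NSE4 cells alone NOP14 and WDR43 were called after GC adjustment (0.0320 and 0.0362). BYSL, a late pre-40S factor, WDR75 and UTP14A of the processome, and RRP9, a U3 snoRNP protein whose locus also names IQCF1, had averaged differences of 0.30, −0.09, 0.13 and −0.06 that did not pass (adjusted p = 0.0528, 0.412, 0.381 and 0.648). BYSL passed with median-ratio scaling (0.0203), quantile normalization (0.0324) or without GFP-DOX replicate 1 (0.0143), NSE4-DOX replicate 1 (0.0479) or SMC5-DOX replicate 1 (0.0353), and RRP9 after GC adjustment (0.0122).

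Of the 9 large subunit assembly factors 2 fell in the averaged comparison and none rose, so the fallen share was near the 23.6% of all loci that fell, while 28% of all loci rose. GNL3, the GTP-binding protein nucleostemin, stood at 47.0 and 53.8 FPKM in GFP-DOX cells against 71.3 and 76.7 FPKM in GFP cells, at 52.6 and 47.0 FPKM in NSE4-DOX cells against 72.5 and 79.2 FPKM in NSE4 cells, and at 54.1 FPKM in SMC5-DOX cells against 68.4 and 73.7 FPKM in SMC5 cells. The doxorubicin samples were the lower ones in every background, and it fell in GFP and NSE4 cells (log2 differences of −0.55 in GFP, −0.60 in NSE4 and −0.38 in SMC5 cells, limma adjusted p = 0.00678, 0.00475 and 0.0743). In SMC5 cells it passed with median-ratio scaling (0.0442) and quantile normalization (0.0404). NOP16 stood at 28.4 and 30.1 FPKM in GFP-DOX cells against 33.5 and 41.3 FPKM in GFP cells, at 30.1 and 32.4 FPKM in NSE4-DOX cells against 34.6 and 42.2 FPKM in NSE4 cells, and at 32.2 FPKM in SMC5-DOX cells against 35.0 and 40.6 FPKM in SMC5 cells. Its groups did not overlap, and the averaged difference was −0.28 (SE 0.09, adjusted p = 0.0268) in limma, while the single backgrounds gave adjusted p-values of 0.104, 0.166 and 0.406. It passed in GFP cells with median-ratio scaling (0.0388), and in GFP and NSE4 cells with quantile normalization (0.0227 and 0.0493) and GC adjustment (0.0110 and 0.0170). The averaged call was lost without GFP replicate 2, GFP-DOX replicate 1, NSE4 replicate 2, NSE4-DOX replicate 1 or SMC5 replicate 2 (0.0577 to 0.0670), and with no filter (0.0552).

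PES1, BOP1 and WDR12, which form the PeBoW complex of 60S maturation, had averaged log2 differences of −0.25, −0.24 and −0.13 (limma adjusted p = 0.0806, 0.202 and 0.124). PES1 and BOP1 were called after GC adjustment, at −0.38 each (0.00178 and 0.0105), and PES1 also with median-ratio scaling (0.0255) and quantile normalization (0.0141). In GFP and NSE4 cells alone PES1 was called after GC adjustment as well (limma adjusted p = 0.0323 and 0.0180). Left-out libraries gave calls too, for PES1 without NSE4 replicate 1 (0.0223) or SMC5-DOX replicate 2 (0.0464) and for BOP1 without NSE4-DOX replicate 2 (0.0352). NOP2, an rRNA cytosine methyltransferase, shares its locus with the chromatin remodeller CHD4, which cannot be told apart from it here. That locus stood at 191 and 135 FPKM in GFP-DOX cells against 153 and 251 FPKM in GFP cells, at 189 and 184 FPKM in NSE4-DOX cells against 132 and 137 FPKM in NSE4 cells, and at 124 FPKM in SMC5-DOX cells against 165 and 184 FPKM in SMC5 cells. Its direction differed between backgrounds and no comparison passed. BRIX1, RRS1 (locus shared with ADHFE1 and C8orf46) and RRP1 had averaged differences of 0.11, 0.09 and 0.17 (adjusted p = 0.269, 0.415 and 0.309).

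Of the remaining nucleolar proteins neither was called. DDX21, an RNA helicase that couples polymerase I transcription to rRNA processing, in a locus with its paralogue DDX50, stood at 59.8 and 59.9 FPKM in GFP-DOX cells against 58.0 and 56.8 FPKM in GFP cells, at 63.2 and 62.0 FPKM in NSE4-DOX cells against 57.5 and 59.3 FPKM in NSE4 cells, and at 60.5 FPKM in SMC5-DOX cells against 61.4 and 54.8 FPKM in SMC5 cells. Its averaged log2 difference of 0.07 had a 95% interval of −0.05 to 0.20, and it was called after GC adjustment (0.12, limma adjusted p = 0.0328). LYAR stood at 26.1 and 28.3 FPKM in GFP-DOX cells against 26.9 and 27.4 FPKM in GFP cells, at 28.2 and 27.3 FPKM in NSE4-DOX cells against 27.9 and 29.5 FPKM in NSE4 cells, and at 26.4 FPKM in SMC5-DOX cells against 27.0 and 27.5 FPKM in SMC5 cells. The groups overlapped in GFP and NSE4 cells, and the averaged difference was −0.03 (95% interval −0.16 to 0.10, limma adjusted p = 0.686).

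MYC, which drives many of these genes in growing cells, is no member and was listed beside them as a regulator. It stood at 105 and 122 FPKM in GFP-DOX cells against 172 and 193 FPKM in GFP cells, at 121 and 123 FPKM in NSE4-DOX cells against 178 and 198 FPKM in NSE4 cells, and at 109 FPKM in SMC5-DOX cells against 181 and 189 FPKM in SMC5 cells. All doxorubicin samples were below all PBS samples, and MYC fell by 0.68 in GFP, 0.62 in NSE4 and 0.76 in SMC5 cells on the log2 scale (limma adjusted p = 0.00221, 0.00344 and 0.00554). No relation between the level of MYC and that of the members was tested.

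Other genes of the pathway, from lists of further polymerase I, small subunit, large subunit and nuclear exosome genes, moved in either direction about equally. Averaged over the backgrounds 27 of their 116 loci fell and 26 rose (23.3% and 22.4%), where 23.6% of all loci fell and 28% rose. In GFP cells 12 fell and 13 rose (10.3% and 11.2%, against 14.1% and 17% of all loci). In NSE4 cells 9 fell and 12 rose (7.76% and 10.3%, against 13.9% and 16.3%), and in SMC5 cells 3 fell and 5 rose (2.59% and 4.31%, against 9.87% and 11%), so both shares were below those of all loci in each background. In the plasmid and interaction comparisons 0 of the 116 were called. Of 13 further polymerase I loci 6 rose and 2 fell in the averaged comparison. POLR2L, POLR2H and POLR2K, small subunits shared by the 3 nuclear RNA polymerases, rose by 1.36, 0.65 and 0.52 on the log2 scale (limma adjusted p = 3.81e-05, 5.78e-05 and 5.91e-04), and POLR2L stood at 449 and 596 FPKM in GFP-DOX cells against 219.7 and 232 FPKM in GFP cells. TTF1, the terminator of polymerase I transcription, rose in GFP and NSE4 cells (0.62 and 0.52, adjusted p = 0.0171 and 0.0363) and had a difference of −0.03 in SMC5 cells.

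Of 44 further small subunit loci 14 fell and 7 rose in the averaged comparison, among them DDX10, an RNA helicase (−0.62, limma adjusted p = 3.11e-04), RIOK1, a kinase of late pre-40S particles (−0.42, 0.00163), IMP3, of the U3 particle (0.54, 8.28e-04), and NOL11 (0.37, 0.00102). Of 44 further large subunit loci 11 rose and 6 fell. WDR74, in a locus with RNU2-2P, rose by 0.86, SBDS, which helps release the anti-association factor EIF6 from 60S subunits, by 0.45, and DDX24, an RNA helicase, by 0.46, and RSL24D1 fell by 0.46 on the log2 scale (adjusted p = 1.82e-04, 2.97e-04, 6.57e-04 and 6.62e-04). Of 15 nuclear exosome loci 5 fell and 2 rose. C1D, a cofactor of the exosome in rRNA trimming, fell by 0.43, the EXOSC6 locus (shared with AARS) by 0.50, MPHOSPH6 by 0.46 and the helicase SKIV2L2 by 0.33 (adjusted p = 3.78e-04, 0.00212, 0.00303 and 0.00493). These counts stand beside 23.6% of all loci that fell and 28% that rose in the averaged comparison. The difference between the small and the large subunit lists was not tested.

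Subunits of the other nuclear polymerases were set beside them. Of 14 polymerase III and TFIIIB loci 1 fell (POLR3G, −0.43, limma adjusted p = 0.00122) and 2 rose (POLR3F, 0.49, 0.00423, and POLR3GL, 0.45, 0.0136) in the averaged comparison. Of 7 polymerase II loci 2 fell and 2 rose. Over all loci 23.6% fell and 28% rose in that comparison. POLR2A, the largest subunit of polymerase II in a locus with SLC35G6, stood at 175 and 188 FPKM in GFP-DOX cells against 62.4 and 68.8 FPKM in GFP cells, at 168 and 223 FPKM in NSE4-DOX cells against 68.0 and 63.7 FPKM in NSE4 cells, and at 184 FPKM in SMC5-DOX cells against 85.9 and 69.8 FPKM in SMC5 cells. It rose by 1.41 on the log2 scale (adjusted p = 1.08e-05), whereas POLR1A and POLR1B of polymerase I differed by 0.04 and −0.49. POLR2D rose by 0.41 (0.00451), and POLR2J and POLR2I fell by 0.31 and 0.40 (0.00731 and 0.0137).

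**Figure D4:**
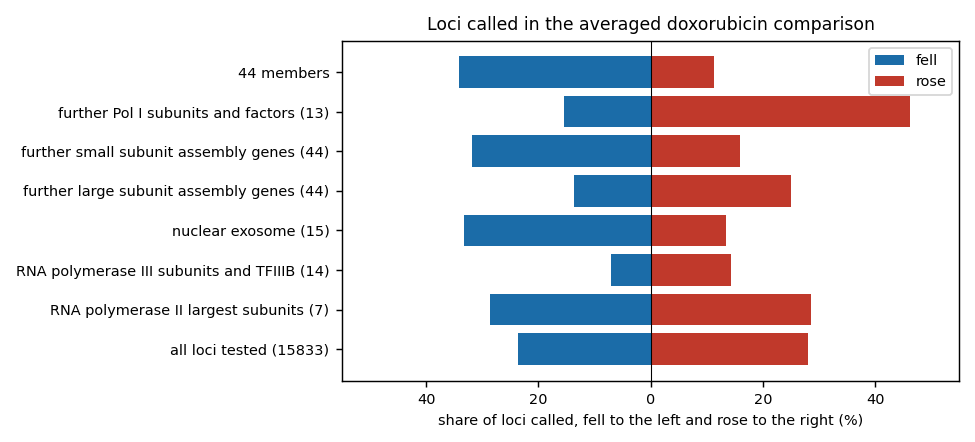
Share of loci (horizontal axis, %) that fell (blue, left) and rose (red, right) in the doxorubicin comparison averaged over the 3 backgrounds, for the 44 members, the other lists (loci tested in parentheses) and all tested loci. Among the members 34.1% fell and 11.4% rose, against 23.6% and 28% of all loci.

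Neither plasmid moved a ribosome biogenesis gene past the test. In limma 0 of 44 members were called for the NSE4 plasmid without doxorubicin (0.0442% of all loci were), the NSE4 plasmid with doxorubicin (0.0568%), the SMC5 plasmid without doxorubicin (0%) and the SMC5 plasmid with doxorubicin (0.0316%). At an unadjusted p under 0.05 these comparisons held 1, 1, 0 and 1 members, of 452, 534, 489 and 476 loci in all, and with the other settings tried 0 members were called as well. The members with an unadjusted p under 0.05 were the NOP2 and CHD4 locus for NSE4 without doxorubicin (log2 difference −0.54, 95% interval −1.06 to −0.02), WDR12 for NSE4 with doxorubicin (−0.25, −0.49 to −0.02) and HEATR1 for SMC5 with doxorubicin (−0.27, −0.53 to −0.01), each with an adjusted p of 1. The comparisons of the 2 plasmids share the GFP libraries, and those with doxorubicin the GFP-DOX libraries. The SMC5 gene itself, far higher in SMC5 than in GFP cells, was not called for the SMC5 plasmid with or without doxorubicin. The test can thus miss a large difference, and the lack of calls among the members has to be read with that limit.

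The intervals show what sizes the data allow. For the NSE4 plasmid the 95% interval lay within 1 log2 unit of 0 in 42 of 44 members without doxorubicin (not NOP2 and TAF1B) and in 44 with it. For the SMC5 plasmid this held in 43 members without doxorubicin (not TAF1B) and in 42 with it (not NOP2 and TAF1B). Within 0.5 units it held in 36, 36, 35 and 26 members, so smaller differences remain possible in the others. The members' log2 differences ran from −0.54 to 0.37 for NSE4 and from −0.28 to 0.28 for SMC5 without doxorubicin, and from −0.35 to 0.21 and from −0.40 to 0.38 with it. POLR1A, the catalytic subunit, was lower without overlap in both plasmid groups under doxorubicin and in SMC5 cells without it, and overlapped in NSE4 cells. Its level was 8.53 and 8.85 FPKM in NSE4-DOX cells and 8.36 FPKM in SMC5-DOX cells against 9.55 and 13.4 FPKM in GFP-DOX cells, and 11.04 and 9.11 FPKM in NSE4 cells and 7.49 and 8.01 FPKM in SMC5 cells against 9.25 and 10.1 FPKM in GFP cells. In limma POLR1A was not called in any of these comparisons, nor was its unadjusted p under 0.05. The share of all loci that separated in this way was not counted.

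The interaction, which asks whether the doxorubicin effect differed from that in GFP cells, was called for 0 of 44 members with either plasmid (0.0316% of all loci for NSE4 and 0.0189% for SMC5 were called). At an unadjusted p under 0.05 there were 1 and 0 members, of 454 and 440 loci. The NOP2 and CHD4 locus had the largest NSE4 interaction, at 0.76 on the log2 scale (95% interval 0.02 to 1.49). The difference of the doxorubicin effects lay within 1 log2 unit of 0 by its interval in 42 members for NSE4 and 40 for SMC5. For the 5 members that fell in all 3 backgrounds the NSE4 interaction was 0.03 for NPM1, −0.14 for NOB1, −0.10 for NHP2, 0.12 for FBL and −0.02 for the NAT10 locus. The SMC5 interaction of the same loci was 0.05, −0.23, −0.17, −0.05 and −0.11 in that order.

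**Figure D5:**
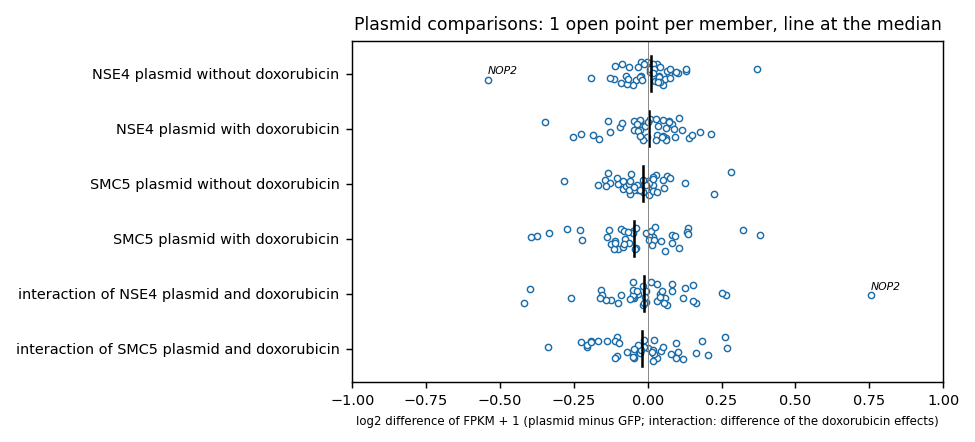
Log2 difference of FPKM + 1 (horizontal axis) of each member (open points, with vertical scatter for visibility) in the 4 comparisons of a plasmid with GFP and the 2 interactions with doxorubicin; lines mark the medians, which lie between −0.05 and 0.01. The NOP2 and CHD4 locus is the point farthest from 0, at −0.54 and 0.76.

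By FPKM, which is per length, the members were well expressed, with a median of 37.3 FPKM over the 11 samples, against 8.80 FPKM over all tested loci. NPM1 had the highest mean level (556 FPKM, range 382 to 736), followed by NOP10 (214 FPKM, 185 to 245) and FBL (202 FPKM, 158 to 242), and the ranges of NOP10 and FBL overlapped. Next came NCL (179.6 FPKM), the NOP2 locus (168), NOP56 (148), NHP2 (147), and TAF1D (139.5), each overlapping its neighbour in this order, and then POLR1D (100.1), which did not overlap TAF1D. UTP20 (2.43 FPKM, range 1.71 to 3.08), TAF1A (6.19 FPKM), UTP14A (8.48 FPKM) and POLR1A (9.42 FPKM) were the 4 members under 10 FPKM, and UTP20 did not overlap TAF1A. Levels of loci with several names may come from their other gene. Across members the averaged doxorubicin difference had a Spearman correlation of −0.30 with the log2 mean FPKM and 0.05 with GC content, against −0.12 and 0.16 over all loci.

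The correlation of a library's values with GC content differed between libraries and moved with treatment. Spearman's rho of the centred log2 values with GC content was 0.03 and 0.18 in GFP-DOX, 0.03 and 0.25 in NSE4-DOX and 0.16 in SMC5-DOX samples, against −0.22 and −0.03 in GFP, −0.20 and −0.03 in NSE4 and −0.25 and 0.04 in SMC5 samples. With values adjusted for GC content all 11 calls among the members in GFP cells, all 9 in NSE4 and all 8 in SMC5 cells were made again, with 5, 6 and 1 further members, and 17 of the 20 in the averaged comparison. Over all loci the adjustment brought falls from 2228 to 2927 in GFP, 2205 to 2882 in NSE4 and 1563 to 2211 in SMC5 cells. Rises went from 2691 to 2939, 2575 to 2803 and 1747 to 2100 in the same order.

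Other genes were ranked by how closely their values followed the mean centred log2 profile of the 44 members over the 11 samples. Among 5164 loci with a single name and a mean of at least 10 FPKM the closest were SIVA1 (Pearson r = 0.966), KIF18B (0.953), WDR5 (0.949), CLPP (0.945) and COA4 (0.940). None of the 5 was called for doxorubicin in any background, and their log2 differences lay between −0.33 and −0.06. The profile itself varied little, from −0.12 in GFP-DOX replicate 1 to 0.14 in NSE4 replicate 2. It averages members that rose and members that fell, and it was higher in replicate 2 than in replicate 1 of each group with separate samples. In NSE4 cells it was −0.06 and 0.14, and in GFP-DOX cells −0.12 and 0.06. The ranking may follow this shift between libraries, which was not tested, and shows no shared regulation.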

How the data were processed

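The authors deposited 1 table of FPKM values (57908 loci by 12 libraries), made with TopHat and Cufflinks per the submitters' processing notes; versions, genome build and annotation are not given in the sources used here. FPKM are not counts, so log2(FPKM + 1) was tested with limma 3.58.1 in R 4.3.3 (trended prior, 1 fit of 6 groups, 5 residual degrees of freedom), on 15833 loci with at least 1 FPKM in at least 2 samples, with Benjamini-Hochberg adjustment within each of 10 comparisons. The near-identical SMC5-DOX columns were averaged as 1 sample, so SMC5-DOX has no spread of its own and is assumed to vary like the other groups. Replicate numbers come from the sample titles and mark no stated pairing. Since the libraries may be technical replicates, p-values cover no more than their spread.

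Values in every sample are given for the 2 members of each role with the smallest averaged doxorubicin p, up to 4 loci are named per further list, and all members may be named. Like genes were ranked by Pearson r. The members and lists were chosen with earlier results of these data known. GC content came from the longest GENCODE 29 transcript of a name (96.6% of loci), promoters from RefSeq (GRCh38.p14). The fit was tested on simulated data. Alternatives tried were median-ratio scaling, quantile normalization, log2(FPKM + 0.1), no filter, 12 columns as separate samples, a replicate block, GC adjustment and leaving out each library. Tables and figures used Python 3.11.15, pandas 2.3.3, numpy 2.4.6, scipy 1.17.1 and matplotlib 3.10.9.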

Additional observations from a re-analysis of the deposited data

Results flagged for a closer look

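In 2 members the doxorubicin and PBS samples moved in opposite directions in NSE4 and SMC5 cells, without overlap when SMC5-DOX was taken as 1 averaged sample. The NOP2 locus, shared with CHD4, stood at 189 and 184 FPKM in NSE4-DOX cells against 132 and 137 FPKM in NSE4 cells and at 124 FPKM in SMC5-DOX cells against 165 and 184 FPKM in SMC5 cells, so that its log2 doxorubicin difference was 0.96 higher in NSE4 than in SMC5 cells. POLR1A stood at 8.53 and 8.85 FPKM in NSE4-DOX cells against 11.04 and 9.11 FPKM in NSE4 cells and at 8.36 FPKM in SMC5-DOX cells against 7.49 and 8.01 FPKM in SMC5 cells, and its log2 doxorubicin difference was −0.29 in NSE4 minus SMC5 cells. Before averaging, the SMC5-DOX columns of POLR1A were 8.011 and 8.716 FPKM, and SMC5 replicate 2 was 8.014 FPKM. As separate columns the SMC5-DOX and SMC5 values of POLR1A thus overlapped. These differences between backgrounds were not tested, each group has 2 libraries or, in SMC5-DOX cells, 1 averaged sample, and neither locus was called for doxorubicin in either background. The share of all loci with such a pattern was not counted, so the values do not show that it is rare.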

How the results depend on the processing

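No call of a member reversed direction, and 0 members were called in the plasmid and interaction comparisons under every setting tried. Differences that were not called could change sign, as that of NOP10 in SMC5 cells did with quantile normalization. Counts that moved by over 1.5 times were as follows; the cause was not tested. Members that rose in the averaged doxorubicin comparison were 8 with median-ratio scaling, 8 with quantile normalization and 9 with the replicate block, against 5. All loci that rose there numbered 4594, 4163 and 4831 in that order, against 4432 of 15833. In NSE4 cells 4 rose with quantile normalization, 4 with the replicate block and 4 after GC adjustment, against 2, and 11 fell after GC adjustment, against 7. Of all loci 2574, 3132 and 2803 rose there, against 2575, and 2882 fell after GC adjustment, against 2205. In GFP cells 4 rose with the replicate block, against 2, where 3218 of all loci rose, against 2691. In SMC5 cells 1 rose without the filter, against 2, and 10 fell with the 12 columns as separate samples, against 6, in a fit that counts 1 sample as 2. Of all loci 2309 of 33654 rose without the filter, against 1747 of 15833, and 2699 fell with the 12 columns, against 1563. With 1 library left out, members that fell ranged from 6 to 9 in GFP, 5 to 8 in NSE4 and 4 to 6 in SMC5 cells and from 11 to 17 averaged, and members that rose from 2 to 2, 2 to 2, 1 to 2 and 3 to 7. The averaged count of 3 came without GFP replicate 2 or GFP-DOX replicate 2, and the count of 1 in SMC5 cells without either SMC5 or either NSE4-DOX library. Calls made whichever library was left out were 8 of 11 in GFP, 7 of 9 in NSE4, 5 of 8 in SMC5 cells and 14 of 20 averaged. Same-numbered libraries of different groups deviated with correlations of −0.04 to 0.07 across loci, so the samples were not treated as paired. Same-numbered libraries still shared a shift: the correlation with GC content and the members' mean level were higher in replicate 2 than in replicate 1 in each of the 5 groups with 2 samples, and nothing in the sources says what the numbers mark. The replicate block brought the calls from 11 to 17 in GFP, 9 to 14 in NSE4, 8 to 10 in SMC5 cells and 20 to 28 averaged, with all earlier calls among them. TAF1C (in each background) and NOP16 (in GFP and NSE4 cells) were among the further ones. Those in the averaged comparison were BYSL, DKC1, GAR1, NOLC1, NOP56, PES1, POLR1C and WDR12. Over all loci the block brought falls from 2228 to 2695 and rises from 2691 to 3218 in GFP cells. In NSE4 cells these went from 2205 to 2677 and from 2575 to 3132, and in SMC5 cells from 1563 to 2051 and from 1747 to 2329. Averaged, they went from 3740 to 4093 and from 4432 to 4831. Precision is limited by 2 libraries per group: the median half-width of a member's 95% interval was 0.31 log2 units for doxorubicin in GFP or NSE4 cells and 0.37 in SMC5 cells.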
